A study of Mus musculus with 23 samples.

Results

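The genes described here are 9 chaperones and the transcription factor Hsf1, measured in cultured mouse CD4+ T cells. They were chosen by name: the HSP110 gene Hsph1, the cytosolic HSP90 genes Hsp90aa1 and Hsp90ab1, the HSP90 activator Ahsa1, the HSP70 genes Hspa8 and Hspa1b, the J-domain gene Dnaja1, and the mitochondrial chaperonin genes Hspd1 and Hspe1, with Hsf1. All 10 were found among the 53379 gene IDs of the count table, and all 10 were among the 16882 genes that passed the filter on low counts and were tested. The cells were CD45+CD3+CD4+CD8- T cells sorted from spleens of mice on the C57BL/6 background, and every culture was kept for 72 h in medium with 30 IU/ml IL-2. Stimulated cultures also received antibodies to CD3 and CD28, and niacin, where added, was at 5 mM. The genotype labels are KO, for Gpr109a-/- (Gpr109a is the earlier name of Hcar2, a receptor for niacin), and WT, for wild type. There were 8 groups: stimulated cells with niacin, KO and WT, stimulated cells without niacin, KO and WT, unstimulated cells with niacin, KO and WT, and unstimulated cells without niacin, KO and WT. Each group held 3 libraries, except unstimulated KO cells with niacin, which held 2. The labels do not say whether the replicates of a group came from different mice, so each p-value speaks for the variation among libraries, which may be technical.

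Heat shock proteins bind unfolded or partly folded proteins and release them through cycles of ATP binding and hydrolysis. In the cytosol, J-domain proteins such as Dnaja1 deliver a client to HSP70, nucleotide exchange factors such as Hsph1 release it, and HSP90 takes over clients such as kinases and steroid receptors, with Ahsa1 raising its ATPase rate. In mitochondria, HSP60 (Hspd1) and its lid HSP10 (Hspe1) fold imported proteins. HSF1 is held inactive in resting cells in part by HSP90, and after stress it binds heat shock elements, inverted repeats of the triplet GAA, in the promoters of many chaperone genes. Naive T cells that are activated enlarge, translate more protein and divide, and HSP70 and HSP90 proteins are known to be more abundant in activated lymphocytes.

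The promoter sequences below show which of the genes carry a heat shock element close to the transcript start. RefSeq windows of the 250 bases before an annotated start (build GRCm38.p6) were found for 6 of the 10 genes, namely Hsph1, Hspa1b, Dnaja1, Hspd1, Hspe1 and Ahsa1. They were searched for the pairs GAANNTTC and TTCNNGAA and for the triples GAANNTTCNNGAA and TTCNNGAANNTTC, each of which contains both pairs. Each pair reads the same on both strands, and the triples are each other's reverse complement. A pair was present for 5 of the 6 genes, all but Ahsa1, and a triple for 2, Hspd1 and Hspe1. Of 32851 windows of this length in the RefSeq table, 12.8% held a pair and 0.466% held a triple. Counted by gene, as above, 14.5% of 27025 genes held a pair in at least 1 window and 0.514% a triple. Dnaja1 had 3 windows and Hspd1 had 2, and a pair was found in 1 window of each. Hspd1 and Hspe1 lie head to head on chromosome 1, and the triple counted for both is 1 and the same site, chr1:55088053-55088082 with its flanks, read on opposite strands. It is shown first for Hspe1 (plus strand, 95 to 66 bases before its start), then for Hspd1 (minus strand, 150 to 121 bases before the second of its annotated starts), with the motifs in capitals. All 30 bases lie in an exon annotated in the count table.
Hspe1: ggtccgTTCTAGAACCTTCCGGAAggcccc
Hspd1: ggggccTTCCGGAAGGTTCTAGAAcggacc

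The same window of Hsph1, the gene with the largest difference by genotype label, held 1 pair (chr5:149636347-149636586, minus strand, the first base of the motif 33 bases before the first annotated start). It is shown in capitals within 240 bases of its promoter, of which 30 lie in an annotated exon.
Hsph1: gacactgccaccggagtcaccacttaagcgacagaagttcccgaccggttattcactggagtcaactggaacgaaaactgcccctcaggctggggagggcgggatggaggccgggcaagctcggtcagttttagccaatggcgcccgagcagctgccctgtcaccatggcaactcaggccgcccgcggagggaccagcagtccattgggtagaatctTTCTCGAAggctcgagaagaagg

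Dnaja1 (chr4:40722333-40722362, plus strand) and Hspa1b (chr17:34959324-34959353, minus strand) each held 1 pair, in capitals. They are shown because Dnaja1, like Hsph1, fell with stimulation in WT cells, and because Hspa1b had few reads. The 250 bases before Hspa1a, the near copy of Hspa1b, were the same at 247 positions and held the same pair.
Dnaja1: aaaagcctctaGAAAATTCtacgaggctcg
Hspa1b: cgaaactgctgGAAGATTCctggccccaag

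A match to these letters is a description of the sequence and does not show binding of HSF1, which was not measured.

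Library totals ran from 13205565 to 30090018 counts. Reads of Hcar2 went against the genotype labels: 169 reads in 10 of 11 KO libraries, against 1 read in 1 of 12 WT libraries. Which bases of the gene were deleted is not stated in the labels, so KO and WT stand for labels throughout. All 10 markers of CD4 T cells were detected in every group, with a summed level of 4357 to 6785 CPM (reads scaled to TMM-normalised library sizes), against 1.06 to 10.8 CPM for 6 B cell markers and 0.169 to 10.7 CPM for 8 markers of myeloid and dendritic cells. Markers of other lymphocytes were present: 2 of CD8 T cells, which the sort gated out, summed to 7.88 to 29.2 CPM, and 6 of NK and gamma delta T cells to 39.7 to 129 CPM. Library 3 of the unstimulated KO cells had the lowest total (the next lowest was 20604050) and the lowest TMM factor, 0.885. The name of its count column also lacks the tag jax, which the names of all other count columns carry. What this tag stands for is not stated in the labels, so a difference in handling cannot be told apart from the other traits of this library. Mitochondrial genes took 0.187% and 0.217% of the counts of libraries 1 and 2 of the WT cells stimulated with niacin, while they took 0.605% in the remaining one. They took 0.346% in library 1 of the unstimulated WT cells, while the other libraries there had 0.937% and 0.802%.

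Chaperone transcripts were abundant in every condition, and the constitutive forms made up most of them. Per length, mean levels over all libraries were 546 RPKM for Hsp90ab1 and 276 RPKM for Hspa8, the constitutive HSP90 and HSP70 genes, which put them above 99.71% and 99.27% of the tested genes. Hsp90aa1, the inducible HSP90 form, averaged 65.3 RPKM, Hspd1 63.6 RPKM, Ahsa1 39.6 RPKM and Hspe1 35.3 RPKM. Hsf1 averaged 14.8 RPKM, Hsph1 12.04 RPKM and Dnaja1 11.2 RPKM. The order of the group means changed between groups within the pairs Hsp90aa1 and Hspd1, and Ahsa1 and Hspe1, and among Hsf1, Hsph1 and Dnaja1, so these neighbours were not told apart. Hspa1b, the inducible HSP70 gene, averaged 0.324 RPKM and had 487 reads in all 23 libraries together, 10 to 43 per library. Its near copy Hspa1a, whose transcript is 99.1% identical over the matched part, had 154 reads in all, so how reads were divided between these genes is uncertain. Hspd1 (chr1:55077835-55088243, minus strand, GRCm38 coordinates of the count table) and Hspe1 (chr1:55088132-55091307, plus strand) overlap over 112 exon bases, 4.24% and 7.6% of their exon lengths, where reads cannot be assigned without strand. Hsph1 lies at chr5:149614287-149636376 on the minus strand and Hsf1 at chr15:76477422-76501913 on the plus strand. Annotated copies of the other 9 genes held at most 1.57% of the reads of their parent gene.

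**Figure D1:**
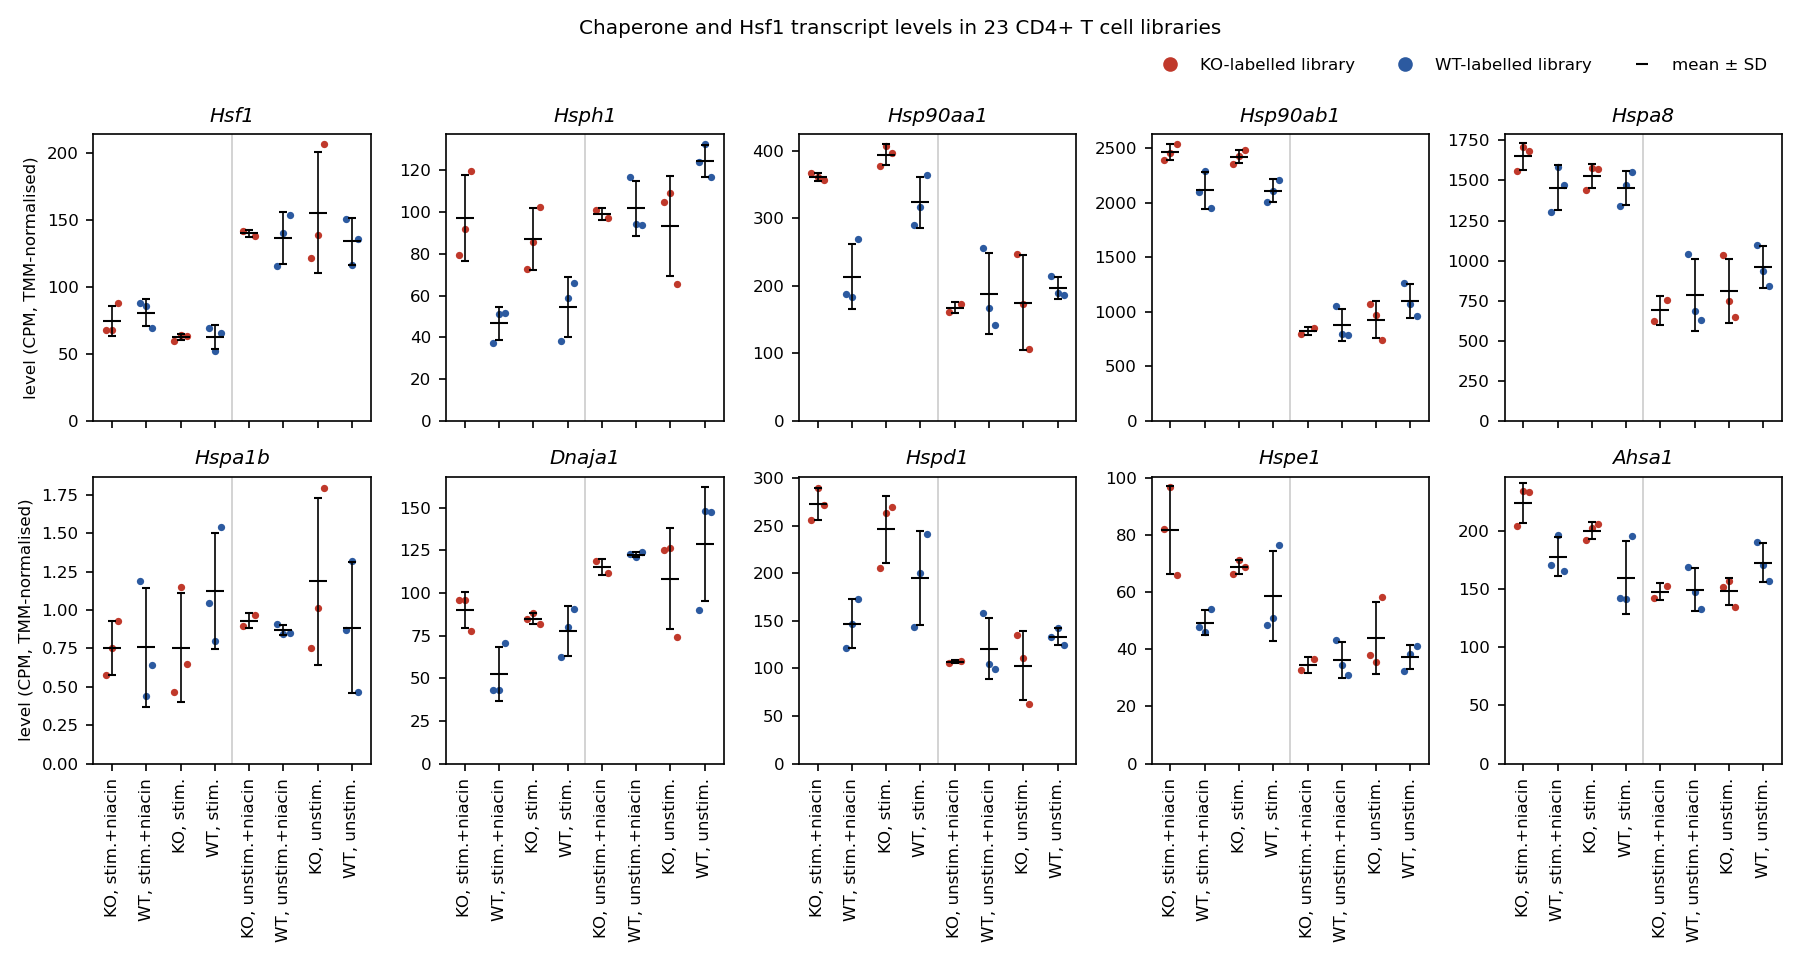
TMM-normalised level (CPM, linear axis from 0) of the 10 genes in the 23 libraries, 1 point per library, red for KO and blue for WT labels, with the mean and SD of each group in black; stimulated groups stand left of the grey line and unstimulated groups right of it. Hsp90ab1 and Hspa8 were higher in every stimulated library than in any unstimulated one, Hsf1 was lower in every stimulated library, and Hsph1 had 72.7 to 119.6 CPM in stimulated KO libraries, against 37.4 to 66.2 CPM in stimulated WT libraries.

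Without niacin, stimulation through CD3 and CD28 raised the constitutive HSP90 and HSP70 transcripts and the chaperonin gene Hspe1, and lowered Hsf1, under both labels. In KO cells 6 of the 10 genes rose and 1 fell, while 25.2% of all tested genes rose and 27.5% fell (52.7% called). In WT cells 4 rose and 3 fell, while 23.4% of all tested genes rose and 21.7% fell (45.1% called). The share of the 10 genes that was called is to be read against these high backgrounds. The median log2 fold change of the 10 genes was 0.54 in KO cells, against -0.13 over all genes, and 0.45 in WT cells, against -0.07 over all genes. Together, the 10 genes took 0.457% to 0.488% of all counts in stimulated KO cells, against 0.186% to 0.331% in unstimulated KO cells. In WT cells the share was 0.395% to 0.452% with stimulation, against 0.298% to 0.350% without it. In bulk RNA a change in the mix of cells and a change of RNA per cell cannot be told apart. Of 6 markers of NK and gamma delta T cells, 4 fell with stimulation in KO cells and 1, Eomes, rose, with summed levels of 104 to 119 CPM in stimulated and 58.3 to 75.5 CPM in unstimulated KO cells. In WT cells 5 fell and Eomes rose, with 93.3 to 129 CPM in stimulated and 50.8 to 92.0 CPM in unstimulated cells. Ncr1 had 0 CPM in all stimulated libraries without niacin. In niacin 4 fell and Eomes rose in KO cells, with 86.3 to 102.5 CPM in stimulated and 50.4 to 87.7 CPM in unstimulated cells, and 5 fell and Eomes rose in WT cells, with 87.2 to 102.4 CPM in stimulated and 39.7 to 126.2 CPM in unstimulated cells. Of 5 tested B cell markers without niacin, 1 fell in KO cells (Cd79a) and 1 in WT cells (Blk). Of 5 tested myeloid markers, Fcer1g fell and Adgre1 rose under both labels. In niacin 2 B cell markers fell in KO and 1 in WT cells, and 1 myeloid marker fell in KO cells, while 2 fell and 1 rose in WT cells. Neither of 2 CD8 markers was called in these 4 comparisons. The part of any of these cells in the results was not tested.

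Without niacin, the HSP90 genes rose under both labels. Hsp90ab1 had 2359, 2428 and 2480 CPM in stimulated KO libraries, against 1073, 967.2 and 743.9 CPM in unstimulated KO libraries. In WT cells it had 2003, 2111 and 2211 CPM with stimulation, against 1267, 1074 and 962.0 CPM without. The groups did not overlap, and the log2 fold change was 1.38 ± 0.14 in KO cells (SE, adjusted p = 1.03e-07, edgeR quasi-likelihood test with Benjamini-Hochberg adjustment, as for all adjusted p-values here unless another test is named) and 0.94 ± 0.14 in WT cells (adjusted p = 1.42e-05). Hsp90aa1 had 378.0, 408.2 and 397.8 CPM in stimulated KO libraries, against 247.1, 173.2 and 105.8 CPM in unstimulated KO libraries. In WT cells it had 290.6, 317.0 and 365.1 CPM, against 214.9, 189.5 and 185.8 CPM unstimulated. Stimulated libraries were again all above unstimulated ones, with log2 fold changes of 1.17 ± 0.23 in KO cells (adjusted p = 0.000315) and 0.72 ± 0.23 in WT cells (adjusted p = 0.0156). The call in WT cells was lost without library 3 of the stimulated cells (adjusted p = 0.0622) or library 3 of the unstimulated cells (adjusted p = 0.0549). Ahsa1, the activator of the HSP90 ATPase, had 192.3, 202.0 and 205.9 CPM in stimulated KO libraries, against 152.0, 156.7 and 134.6 CPM in unstimulated KO libraries, and it rose by 0.44 ± 0.14 on the log2 scale (adjusted p = 0.0114). In WT cells its values overlapped, at 141.8, 141.4 and 195.5 CPM with stimulation, against 190.0, 170.2 and 156.9 CPM without (log2 fold change -0.11 ± 0.14, adjusted p = 0.527).

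The HSP70 machine split. Hspa8 rose under both labels, with 1441, 1577 and 1570 CPM in stimulated KO libraries, against 1032, 750.6 and 646.4 CPM in unstimulated KO libraries, and 1342, 1473 and 1551 CPM in stimulated WT libraries, against 1100, 936.9 and 844.1 CPM in unstimulated WT libraries. The log2 fold changes were 0.92 ± 0.18 in KO cells (adjusted p = 0.000209) and 0.60 ± 0.17 in WT cells (adjusted p = 0.00852). Neither of its partners here was called higher. Hsph1, which releases nucleotide from HSP70, had 72.7, 85.7 and 102.6 CPM in stimulated KO libraries, against 104.8, 109.3 and 65.7 CPM in unstimulated KO libraries, and these groups overlapped (log2 fold change -0.10 ± 0.21, adjusted p = 0.698). In WT cells Hsph1 had 38.3, 58.8 and 66.2 CPM with stimulation, against 123.8, 132.6 and 117.0 CPM without it, and every stimulated library was lower (log2 fold change -1.19 ± 0.22, adjusted p = 0.000159). Dnaja1, which hands clients to HSP70, had 84.6, 88.1 and 81.7 CPM in stimulated KO libraries, against 124.9, 126.1 and 74.4 CPM in unstimulated KO libraries (log2 fold change -0.36 ± 0.22, adjusted p = 0.178). In WT cells Dnaja1 had 62.2, 80.3 and 90.7 CPM with stimulation, against 89.97, 147.9 and 147.6 CPM without it. It fell by 0.72 ± 0.22 on the log2 scale there (adjusted p = 0.0115), although 1 value of each group overlapped. The call was lost without library 1 of the stimulated WT cells (adjusted p = 0.0631), library 2 of the unstimulated WT cells (0.0549) or library 3 of these (0.0571). Hspa1b had 0.469, 1.15 and 0.649 CPM in stimulated KO libraries, against 0.754, 1.01 and 1.80 CPM in unstimulated KO libraries, and no comparison called it. The interval of its log2 fold change in KO cells, -1.67 to 0.43, leaves a wide range at this depth.

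The mitochondrial chaperonin pair rose with stimulation in KO cells. Hspd1 had 205.6, 262.7 and 269.9 CPM in stimulated KO libraries, against 134.8, 110.8 and 63.0 CPM in unstimulated KO libraries (log2 fold change 1.26 ± 0.23, adjusted p = 0.000157). In WT cells it had 143.8, 199.7 and 241.5 CPM, against 133.3, 142.4 and 124.2 CPM unstimulated; the groups did not overlap, but the test was missed (0.55 ± 0.23, adjusted p = 0.0583). It was passed without library 1 of the stimulated WT cells (adjusted p = 0.0221), library 1 (0.0411) or 3 (0.0162) of the unstimulated KO cells, or library 1 of the unstimulated WT cells with niacin (0.0442). Hspe1, its lid, had 66.4, 71.2 and 68.7 CPM in stimulated KO libraries, against 37.8, 35.6 and 58.4 CPM in unstimulated KO libraries. In WT cells it had 48.3, 50.8 and 76.6 CPM with stimulation, against 32.5, 38.4 and 41.0 CPM without it. Stimulated libraries were above unstimulated ones under both labels, and the log2 fold change was 0.65 ± 0.20 in each (adjusted p = 0.0112 in KO cells and 0.0129 in WT cells). The call in KO cells was lost without library 2 of the unstimulated cells (adjusted p = 0.0605), and the call in WT cells without library 3 of the stimulated cells (0.119) or library 1 of the unstimulated cells (0.0558). Per length, Hspe1 stood at 0.435 to 0.704 of the level of Hspd1 in 22 libraries and at 1.66 of it in library 3 of the unstimulated KO cells.

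Hsf1, the regulator, fell under both labels. It had 59.9, 64.2 and 63.7 CPM in stimulated KO libraries, against 121.8, 138.6 and 206.7 CPM in unstimulated KO libraries, and 69.4, 52.3 and 65.9 CPM in stimulated WT libraries, against 150.5, 116.1 and 135.6 CPM in unstimulated WT libraries. It fell by 1.31 ± 0.18 on the log2 scale in KO cells (adjusted p = 6.41e-06) and by 1.10 ± 0.18 in WT cells (adjusted p = 5.85e-05). The stimulated groups had means of 62.6 ± 2.3 CPM in KO and 62.5 ± 9.0 CPM in WT cells (SD, n = 3 each), and the 95% interval of their log2 fold change was -0.37 to 0.38. Without library 3 of the unstimulated KO cells, which held the highest Hsf1 and the lowest Hspd1, Hsp90aa1 and Hsp90ab1 levels of all, the 7 calls in KO cells were kept, with log2 fold changes of -1.06 for Hsf1 and 1.00 for Hspd1, and Dnaja1 was called too (-0.57 ± 0.21, adjusted p = 0.0267).

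**Figure D2:**
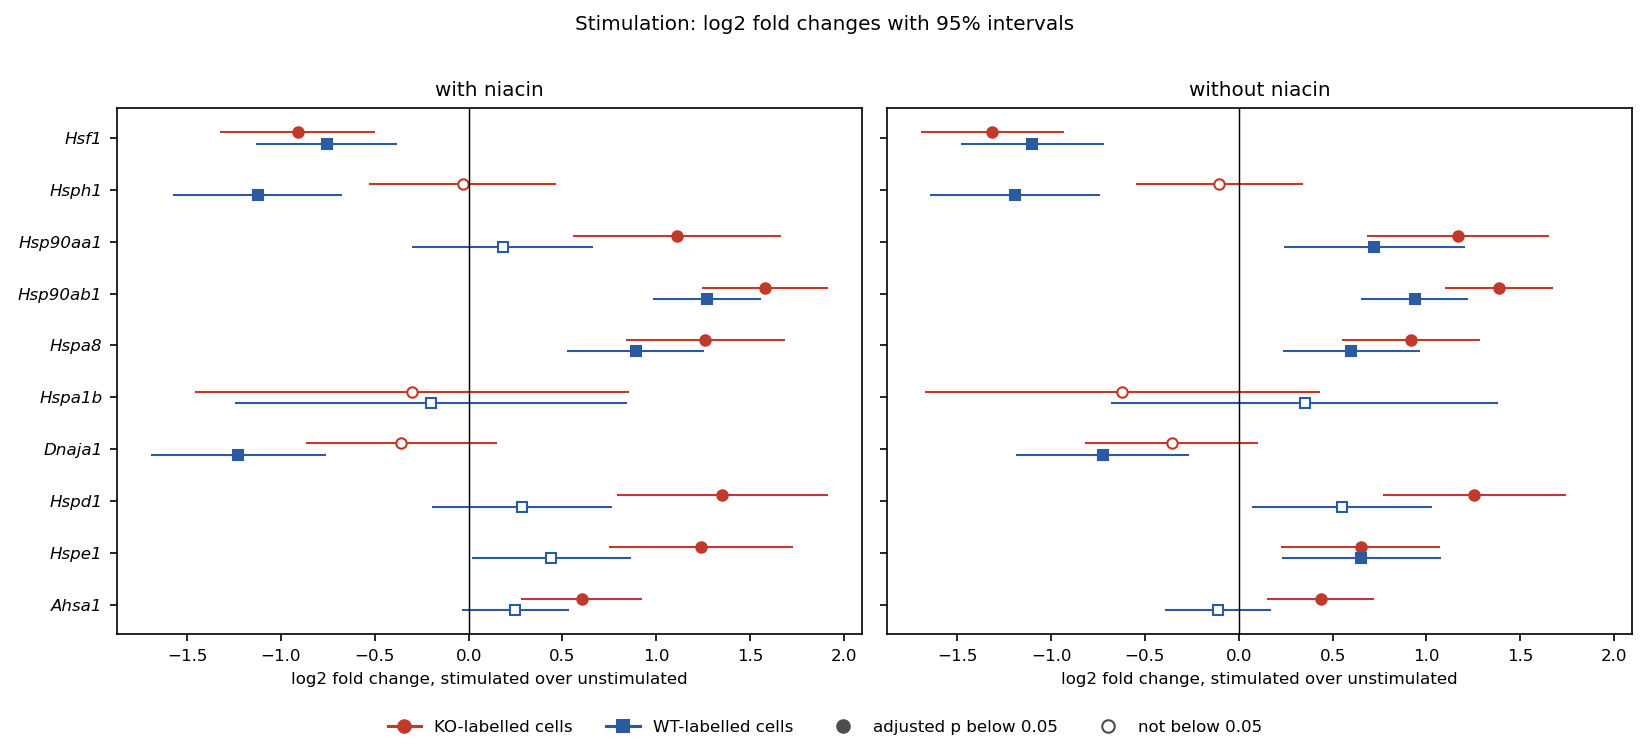
Log2 fold change of each gene with stimulation (stimulated over unstimulated, linear axis of log2 values), with niacin on the left and without niacin on the right; red circles are KO cells, blue squares WT cells, bars are 95% intervals, and filled symbols passed the test at 0.05. Without niacin, Hsf1 lies left of 0 under both labels (-1.31 and -1.10), while Hsph1 lies near 0 in KO cells (-0.10) and left of 0 in WT cells (-1.19).

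With niacin present, stimulation gave a similar division in KO cells, while fewer genes were called higher in WT cells than without niacin. Whether niacin changed the effect of stimulation was not tested, so the difference in these counts is no result about niacin. In KO cells 6 genes rose and 1 fell, while 24.5% of all tested genes rose and 25.3% fell (49.8% called). In WT cells 2 rose and 3 fell, while 26% of all tested genes rose and 26.6% fell (52.6% called). The median log2 fold change of the 10 genes was 0.86 in KO cells, against -0.07 over all genes, and 0.21 in WT cells, against -0.10 over all genes. The largest rise was that of Hsp90ab1, with 2394, 2451 and 2539 CPM in stimulated KO libraries, against 796.7 and 849.5 CPM in unstimulated KO libraries (log2 fold change 1.58 ± 0.16, adjusted p = 1.92e-07). In WT cells Hsp90ab1 rose by 1.27 ± 0.14 (adjusted p = 2.79e-07) and Hspa8 by 0.89 ± 0.18 (adjusted p = 0.000273). Hspe1 had 82.0, 96.8 and 66.02 CPM in stimulated KO libraries, against 32.6 and 36.5 CPM in unstimulated KO libraries, and rose by 1.24 ± 0.24 (adjusted p = 0.000228). Its partner Hspd1 rose by 1.35 ± 0.27 (adjusted p = 0.000362), Hsp90aa1 by 1.11 ± 0.27 (0.00189) and Ahsa1 by 0.60 ± 0.16 (0.00327) in the same comparison. None of these 3 was called in WT cells. There DESeq2 gave log2 fold changes of 0.24 for Hspd1 (DESeq2 adjusted p = 0.389), 0.13 for Hsp90aa1 (0.637) and 0.20 for Ahsa1 (0.174). The DESeq2 values in KO cells, to be set beside these, were 1.27 for Hspd1, 1.03 for Hsp90aa1 and 0.52 for Ahsa1. In WT cells Hspe1 was not called (0.44 ± 0.20, adjusted p = 0.0734), except without library 3 of the unstimulated KO cells (0.0316) or library 1 of the unstimulated WT cells with niacin (0.0359). Dnaja1 had 42.9, 43.4 and 70.7 CPM in stimulated WT libraries, against 122.6, 121.1 and 123.9 CPM in unstimulated WT libraries (-1.23 ± 0.22, adjusted p = 0.000125). Hsf1 again fell, to 67.7, 68.2 and 87.9 CPM in stimulated KO libraries, against 142.0 and 138.5 CPM in unstimulated KO libraries (-0.91 ± 0.20, adjusted p = 0.00082), and by 0.76 ± 0.18 in WT cells (adjusted p = 0.00157). The log2 fold change of Hsph1 was -0.03 ± 0.24 in KO cells (adjusted p = 0.923), and it fell in WT cells (-1.12 ± 0.22, adjusted p = 0.00022). The 2 lowest values of Dnaja1 were those of libraries 1 and 2, the ones with few mitochondrial counts, and without both its log2 fold change was -0.82 ± 0.31 (adjusted p = 0.058).

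The genotype labels were compared within stimulated cells, without niacin and with it. Without niacin none of the 10 genes was called, with 0.113% of the tested genes called (0.0474% higher and 0.0652% lower); 2 had an unadjusted p below 0.05, DESeq2 called 0 of the 10, and limma's voom with quality weights called 1, Hsph1 (adjusted p = 0.0453). The log2 fold changes were above 0 for 9 of the 10 genes, with a median of 0.22, against -0.02 over all genes. Values did not overlap for 3 genes, all higher in KO cells, while 9.34% of all tested genes were higher without overlap. Hsph1 had 72.7, 85.7 and 102.6 CPM in KO libraries, against 38.3, 58.8 and 66.2 CPM in WT libraries (log2 fold change 0.68 ± 0.22, adjusted p = 0.354). Hsp90aa1 had 378.0 to 408.2 CPM in KO libraries, against 290.6 to 365.1 CPM in WT libraries (0.28 ± 0.23, adjusted p = 0.819), and Hsp90ab1 had 2359 to 2480 CPM, against 2003 to 2211 CPM (0.20 ± 0.14, adjusted p = 0.759). Ahsa1 was the other gene with an unadjusted p below 0.05 (0.33 ± 0.14, adjusted p = 0.507). Ahsa1, Hspd1, Hspe1, Dnaja1, Hspa8, Hspa1b and Hsf1 overlapped between the labels.

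In stimulated cells with niacin, Hsph1 was higher in KO cells, and it was the 1 gene of 10 that was called, with 1.44% of the tested genes called (0.575% higher and 0.865% lower). It had 79.6, 91.7 and 119.6 CPM in KO libraries, against 37.4, 51.0 and 51.6 CPM in WT libraries, 2.08-fold higher (log2 fold change 1.05 ± 0.22, adjusted p = 0.0219). The call rests on few libraries: it was lost without library 2 (adjusted p = 0.0551) or 3 (0.106) of the KO group, or library 1 (0.149) or 2 (0.0596) of the WT group, with log2 fold changes of 0.88 to 1.12 in these 4 fits. Without libraries 1 and 2 of the WT group together, which leaves 1 library there, assumed to vary like the other groups, the log2 fold change was 0.88 ± 0.32 (adjusted p = 0.408).

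The HSP60, HSP10, HSP90-alpha and J-domain genes had adjusted p-values between 0.05 and 0.1, and each was higher in every KO library than in any WT library. Hspd1 had 256.1, 289.9 and 272.0 CPM in KO libraries, against 121.5, 146.6 and 172.5 CPM in WT libraries (0.89 ± 0.23, adjusted p = 0.0556). Hspe1 had 82.0, 96.8 and 66.02 CPM, against 47.7, 46.1 and 54.2 CPM in WT libraries (0.73 ± 0.20, adjusted p = 0.0688). Dnaja1 had 95.7, 96.1 and 77.6 CPM, against 42.9, 43.4 and 70.7 CPM in WT libraries (0.78 ± 0.22, adjusted p = 0.0723). For these 3 genes the 2 groups stood apart, and library 3 was the WT library nearest to the KO values. Hsp90aa1 had 367.4, 361.6 and 356.4 CPM in KO libraries, against 187.3, 184.0 and 269.7 CPM in WT libraries (0.76 ± 0.23, adjusted p = 0.0855). Ahsa1 had 204.3, 233.9 and 233.1 CPM, against 170.7, 196.5 and 165.6 CPM in WT libraries (0.33 ± 0.14, adjusted p = 0.19). Hsp90ab1 had 2394, 2451 and 2539 CPM, against 2094, 2294 and 1953 CPM in WT libraries (0.22 ± 0.14, adjusted p = 0.388). These groups did not overlap either, and the test was not passed for Hsp90aa1, Ahsa1 or Hsp90ab1. In all, 7 of the 10 genes were higher in every KO library than in any WT library, while 12.5% of all tested genes were, and the median log2 fold change of the 10 was 0.53, against -0.02 over all genes. The constitutive HSP70 gene Hspa8, which had 1557, 1710 and 1683 CPM in KO libraries, against 1305, 1587 and 1474 CPM in WT libraries, was not among them (0.18 ± 0.17, adjusted p = 0.609), and neither were Hsf1 (-0.12 ± 0.18, adjusted p = 0.775) and Hspa1b.

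These values turned on a small number of libraries in opposite directions. Without library 3 of the unstimulated KO cells, which is in neither group but enters the shared estimate of the spread, the number of genes called among the 10 was 5, with 10.5% of the 16814 genes tested there called: Hsph1 (adjusted p = 0.00295), Hspd1 (0.00676), Hspe1 (0.0126), Hsp90aa1 (0.0137) and Dnaja1 (0.0157). Their log2 fold changes were 1.05, 0.89, 0.73, 0.76 and 0.78. With all libraries, DESeq2 called the same 5, with 6.65% of the tested genes called: Hsph1 (DESeq2 adjusted p = 0.000425), Hspd1 (0.00918), Dnaja1 (0.0247), Hspe1 (0.0264) and Hsp90aa1 (0.0333). Voom with quality weights also called these 5, with 20.2% of the tested genes called. Single fits called Hspd1, Hspe1, Hsp90aa1 and Dnaja1 also without library 3 of the WT group (adjusted p = 0.0266, 0.0463, 0.0304 and 0.0113), Hspd1 and Hsp90aa1 without library 1 of the unstimulated KO cells (0.0364 and 0.0471), and Hspd1 without library 1 of the stimulated WT cells without niacin (0.0475) or of the unstimulated WT cells with niacin (0.0396). Without libraries 1 and 2 of the WT group, the number was 0, with 0.0389% of the genes called, and the log2 fold changes were 0.63 ± 0.34 for Hspd1, 0.57 ± 0.31 for Hspe1, 0.40 ± 0.32 for Hsp90aa1 and 0.32 ± 0.30 for Dnaja1. The same 2 libraries had the lowest Hsp90aa1 of the stimulated libraries, and per length Hsp90ab1 stood at 14.7 and 16.3 times the level of Hsp90aa1 in them, against 9.49 in the third library of the group and 5.36 to 9.34 in the other 20. The part of the low mitochondrial share of these libraries in the result was not tested.

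**Figure D3:**
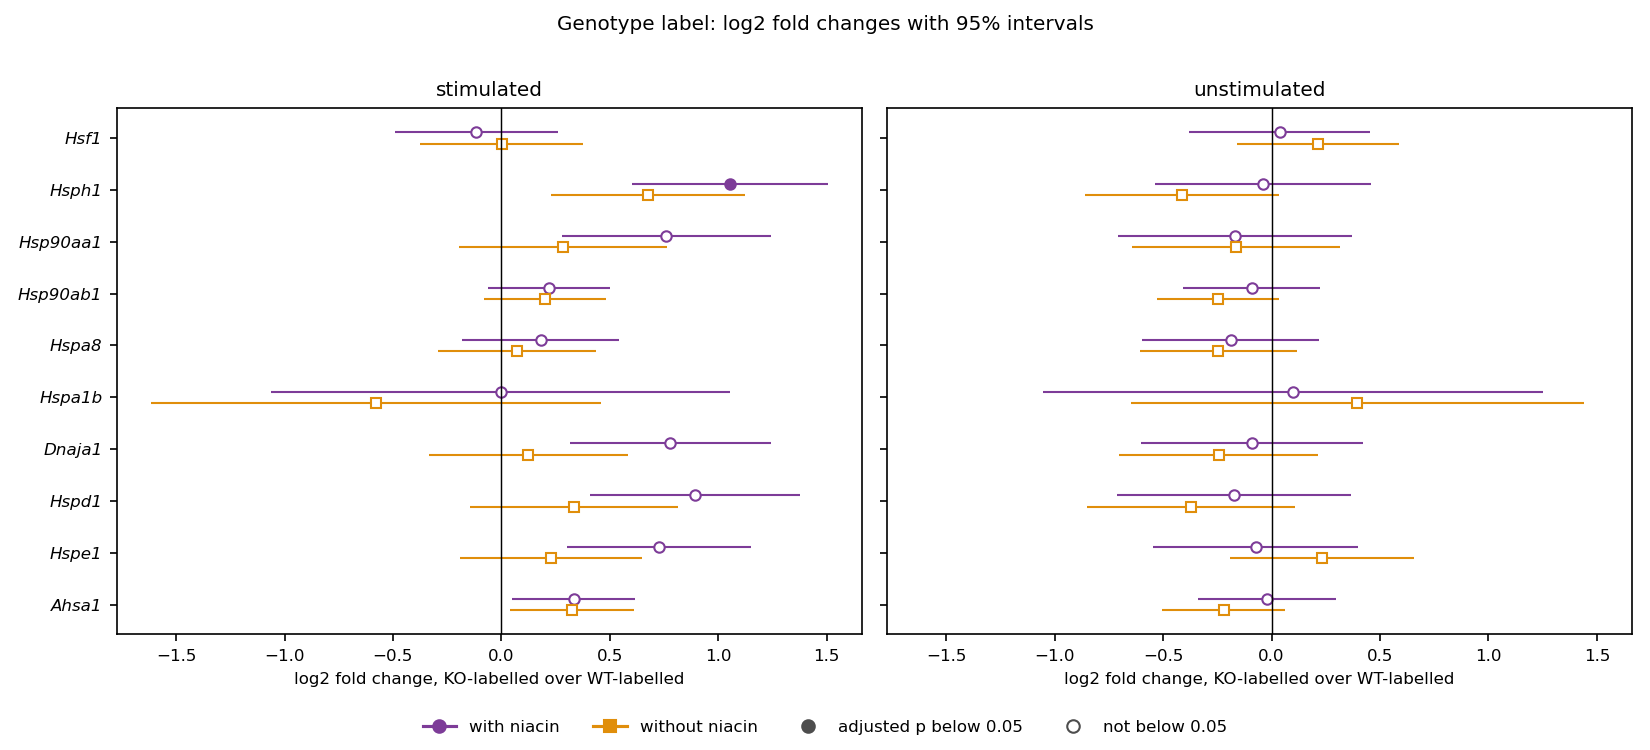
Log2 fold change of each gene by genotype label (KO over WT, linear axis of log2 values) in stimulated cells on the left and unstimulated cells on the right; purple circles are cells with niacin, orange squares cells without it, bars are 95% intervals, and filled symbols passed the test at 0.05. Hsph1 in stimulated cells with niacin (1.05) is the 1 filled symbol, and 8 of the 10 stimulated values with niacin lie right of 0.

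Averaged over both stimulated conditions, the label difference was called for 2 genes, both higher in KO cells, with 4.47% of the tested genes called (1.68% higher and 2.79% lower). This test took the libraries with and without niacin as independent. The labels do not say whether same-numbered libraries of these conditions came from the same mouse, and if they did, its p-values are too small. The median log2 fold change of the 10 was 0.39, against -0.02 over all genes. Hsph1 was 1.82-fold higher (log2 fold change 0.86 ± 0.15, adjusted p = 0.00353), and Hspd1 was 1.53-fold higher (0.61 ± 0.16, adjusted p = 0.0365). Hsph1 kept its call in each of the 23 fits that left out 1 library, with adjusted p-values of 0.000522 to 0.0172. The call of Hspd1 was lost in 11 of them, with adjusted p-values of 0.0515 to 0.114. Without libraries 1 and 2 of the WT cells with niacin neither was called, with 0.77 and adjusted p = 0.0588 for Hsph1, and 0.47 and adjusted p = 0.282 for Hspd1. Without library 3 of the unstimulated KO cells, Hsp90aa1 (adjusted p = 0.0115), Hspe1 (0.013), Ahsa1 (0.0174) and Dnaja1 (0.03) were called as well, with 13.6% of the genes tested there called. DESeq2, with 9.5% of the tested genes called, called 5: Hsph1 (DESeq2 adjusted p = 7.72e-06), Hspd1 (0.00784), Ahsa1 (0.0163), Hsp90aa1 (0.0324) and Hspe1 (0.0347). Without library 3 of the WT cells with niacin, Hsp90aa1 (0.0335) and Dnaja1 (0.0268) were called, without library 3 of the WT cells without niacin, Ahsa1 (0.0158) and Hspe1 (0.0202), without library 1 of the unstimulated KO cells, Hsp90aa1 (0.0352), and without library 1 of the unstimulated WT cells with niacin, Ahsa1 (0.0475) and Hsp90aa1 (0.0446). Of the 6 markers of NK and gamma delta T cells, 1, Klre1, was called in the same comparison (4.51 ± 1.16, adjusted p = 0.0343), at no more than 1.24 CPM in any library. Summed, the 6 had 86.3 to 118.8 CPM in stimulated KO libraries, against 87.2 to 129 CPM in stimulated WT libraries, and their part in the result was not tested.

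Without stimulation no difference by label passed the test. None of the 10 was called without niacin, where 0.0415% of the tested genes were called, nor with niacin, where 0.0355% were called (0.0296% higher); in both conditions 0 had an unadjusted p below 0.05, and DESeq2 called 0. In unstimulated cells without niacin, 2 genes were lower in every KO library, while 4.12% of all tested genes were. Hsph1 had 104.8, 109.3 and 65.7 CPM in KO libraries, against 123.8, 132.6 and 117.0 CPM in WT libraries (-0.41 ± 0.21, adjusted p = 0.502). Ahsa1 had 152.0, 156.7 and 134.6 CPM, against 190.0, 170.2 and 156.9 CPM in WT libraries (-0.22 ± 0.14, adjusted p = 0.571). Library 3 gave the lowest KO value in both, and without it the log2 fold changes were -0.22 ± 0.21 and -0.16 ± 0.14. With niacin the largest difference in size was that of Hspa8 (-0.19 ± 0.20, adjusted p = 1).

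Whether stimulation acted differently under the 2 labels was tested directly, and 0 of the 10 genes passed by edgeR, with 0.00592% of the tested genes called without niacin and 0% in niacin. Unadjusted p-values below 0.05 were found for 4 of the 10 genes without niacin and for 5 in niacin, and DESeq2 called 0 in both. The shares above are for adjusted p-values and are no background for the unadjusted counts. Voom with quality weights called 0 without niacin and 5 in niacin, where it called 12.5% of the tested genes: Dnaja1 (adjusted p = 0.00207), Hsp90aa1 (0.00456), Hspd1 (0.00656), Hspe1 (0.0107) and Hsph1 (0.0116). With no filter on low counts, edgeR called Hsph1 without niacin (adjusted p = 0.0152), and Hspd1 (0.0295) and Hsph1 (0.0405) in niacin. The largest such difference was that of Hsph1, whose stimulation effect was larger by 1.09 ± 0.30 in KO than in WT cells without niacin (adjusted p = 0.419), and by 1.09 ± 0.32 in niacin (adjusted p = 0.337). Those 2 values rest on separate libraries but on the same estimate of the spread. The labels do not say whether the libraries with and without niacin came from different mice, so the 2 values may not be independent. For Hspd1 the difference was 0.71 ± 0.33 without niacin (adjusted p = 0.464) and 1.07 ± 0.35 in niacin (adjusted p = 0.353). For Hspe1 it was 0.00 ± 0.29 without niacin (95% interval -0.60 to 0.59) and 0.80 ± 0.31 in niacin (adjusted p = 0.388). In niacin it was 0.93 ± 0.35 for Hsp90aa1 and 0.87 ± 0.33 for Dnaja1. The values in niacin were smaller without libraries 1 and 2 of the stimulated WT cells: 0.91 ± 0.39 for Hsph1 (adjusted p = 0.91), 0.80 ± 0.42 for Hspd1 (0.927), 0.63 ± 0.39 for Hspe1 (0.931), 0.56 ± 0.41 for Hsp90aa1 (0.931) and 0.41 ± 0.38 for Dnaja1 (0.942).

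By edgeR, niacin itself called none of the 10 genes in any of the 4 backgrounds, and almost none of the tested genes: 0.00592% in stimulated KO cells, and 0% in stimulated WT, unstimulated KO and unstimulated WT cells. DESeq2 also called 0 of the 10 in each. Voom with quality weights called 0 in KO cells, 3 in stimulated WT cells, with 10.8% of the tested genes called, and 1 in unstimulated WT cells, with 1.69% called. The 3 were Hsp90aa1 (-0.72, adjusted p = 0.00481), Dnaja1 (-0.74, adjusted p = 0.00868) and Hsf1 (0.48, adjusted p = 0.0278), and the 1 was Hsp90ab1 (-0.38, adjusted p = 0.0117). Unadjusted p-values below 0.05 were found for 2 genes in stimulated WT cells and 1 in unstimulated WT cells. In stimulated WT cells Hsp90aa1 had 187.3, 184.0 and 269.7 CPM with niacin, against 290.6, 317.0 and 365.1 CPM without it, all lower (-0.60 ± 0.23, adjusted p = 0.433), and 6.78% of all tested genes were lower without overlap there. Dnaja1 had 42.9, 43.4 and 70.7 CPM with niacin, against 62.2, 80.3 and 90.7 CPM without it, and the groups overlapped (-0.57 ± 0.22, adjusted p = 0.433; without library 3 of the niacin group -0.85, adjusted p = 0.0424). Without libraries 1 and 2 of the niacin group the log2 fold changes were -0.27 ± 0.32 for Hsp90aa1 and -0.14 ± 0.30 for Dnaja1 (adjusted p = 1 for each). In unstimulated WT cells Hsp90ab1 had 1049, 799.5 and 783.3 CPM with niacin, against 1267, 1074 and 962.0 CPM without it (-0.33 ± 0.14, adjusted p = 1). In KO cells the log2 fold changes with niacin lay between -0.13 and 0.25 when stimulated and between -0.34 and 0.08 when unstimulated. The test of whether niacin acted differently under the 2 labels in stimulated cells called 0 of the 10 genes (0% of the tested genes); 1, Dnaja1, had an unadjusted p below 0.05 (0.65 ± 0.31, adjusted p = 0.937), DESeq2 called 0, and voom with quality weights called Dnaja1 (adjusted p = 0.0496).

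Other chaperone genes were counted from 4 lists, in stimulation without niacin. Of all tested genes, 25.2% rose and 27.5% fell there in KO cells, and 23.4% rose and 21.7% fell in WT cells. Of 14 genes of the cytosolic chaperonin CCT, which folds actin and tubulin, and of prefoldin, which delivers them, 11 rose with stimulation in KO cells and 10 in WT cells, and 0 fell under either label. Their median log2 fold change was 1.15 in KO cells, against -0.13 over all genes, and 0.72 in WT cells, against -0.07 over all genes. The CCT subunit gene Tcp1 had 649 ± 50 CPM in stimulated, against 209 ± 93 CPM in unstimulated KO cells (SD, n = 3 each; log2 fold change 1.63 ± 0.25, adjusted p = 1.53e-05), and Cct7 rose by 1.61 ± 0.17 (adjusted p = 2.27e-07). Of 18 other mitochondrial chaperone and protease genes, 12 rose in KO and 11 in WT cells, and 0 fell, with medians of 0.90 in KO and 0.61 in WT cells. Lonp1, the matrix protease, had 428 ± 32 CPM in stimulated, against 114 ± 21 CPM in unstimulated KO cells (1.91 ± 0.16, adjusted p = 1.18e-08), and Hspa9, the mitochondrial HSP70, had 745 ± 51, against 230 ± 62 CPM (1.69 ± 0.18, adjusted p = 3.27e-07). These 2 lists moved in the direction of Hspd1 and Hspe1.

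The cytosolic lists held genes that rose and genes that fell. Over all tested genes, 25.2% rose and 27.5% fell in KO cells, and 23.4% rose and 21.7% fell in WT cells. Of 14 HSP90 co-chaperone genes, 6 rose and 3 fell in KO cells, and 4 rose and 3 fell in WT cells. Stip1, which bridges HSP70 and HSP90, rose by 1.08 ± 0.18 in KO cells (adjusted p = 3.81e-05) and by 0.45 ± 0.17 in WT cells (adjusted p = 0.0412). Unc45a, a co-chaperone of HSP90 for myosin, fell by 1.51 ± 0.16 in KO cells (adjusted p = 3.14e-07) and by 1.15 ± 0.16 in WT cells (adjusted p = 9.85e-06). Of 27 tested genes of 29 listed as other cytosolic chaperones and heat shock factors, 7 rose and 6 fell in KO cells, and 5 rose and 5 fell in WT cells. These counts are near the shares of all tested genes and are no result about this list. Without library 3 of the unstimulated KO cells the numbers were 11 and 5 of 26 in KO and 6 and 8 in WT cells, and without library 1 of the unstimulated WT cells 5 and 3 of 27 in WT cells. The shares of all tested genes in those fits are not given here. The medians were 0.30 in KO and 0.22 in WT cells for the co-chaperones, and 0.00 and 0.05 for the other list. Bag2, an HSP70 nucleotide exchange factor, had 25.8 ± 1.5 CPM in stimulated, against 2.22 ± 0.66 CPM in unstimulated KO cells (3.53 ± 0.29, adjusted p = 5.99e-09). In KO cells Hsf2, a second heat shock factor, fell (-1.75 ± 0.42, adjusted p = 0.00154), with 1.99 ± 0.65 CPM in stimulated, against 6.67 ± 2.38 CPM in unstimulated cells. Bag3, an HSF1 target that links HSP70 to autophagy, fell there by 1.13 ± 0.31 (adjusted p = 0.00414), with 8.22 ± 1.69, against a widely spread 18.2 ± 9.8 CPM. In WT cells neither was among the 4 largest called falls of this list, which ran from -1.08 (Dnajb4) to -0.56 (Dnajb2).

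By genotype label, 0 of the 73 tested genes of the 4 lists were called in stimulated cells without niacin (0 with an unadjusted p below 0.05, 0 by DESeq2) or with niacin (20 with an unadjusted p below 0.05, 8 by DESeq2, 24 by voom with quality weights). With niacin, DESeq2 and voom also called larger shares of all tested genes than edgeR did, as given above. The share of all tested genes with an unadjusted p below 0.05 is not given here. Averaged over both stimulated conditions 4 of the 73 were called, beside the 4.47% of all tested genes, all higher in KO cells and named here after their values were seen: Hspa4 (0.45 ± 0.12, adjusted p = 0.0349), which like Hsph1 encodes a nucleotide exchange factor of the HSP110 family, the CCT subunit genes Cct8 (0.57 ± 0.16, adjusted p = 0.0492) and Cct6a (0.56 ± 0.15, adjusted p = 0.043), and the prefoldin gene Pfdn4 (0.45 ± 0.12, adjusted p = 0.0433). This number changed with the fit, and so did the share of all tested genes called. The larger shares of DESeq2 and of the fit without library 3 of the unstimulated KO cells are given above, while those of voom and RLE factors are not. The number was 8 by DESeq2, 7 of them higher, 25 by voom, 22 of them higher, and 5 with RLE factors, 4 of them higher. It was 16 of 72, 15 of them higher, without library 3 of the unstimulated KO cells, and 0 of 73 without libraries 1 and 2 of the stimulated WT cells with niacin.

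**Figure D4:**
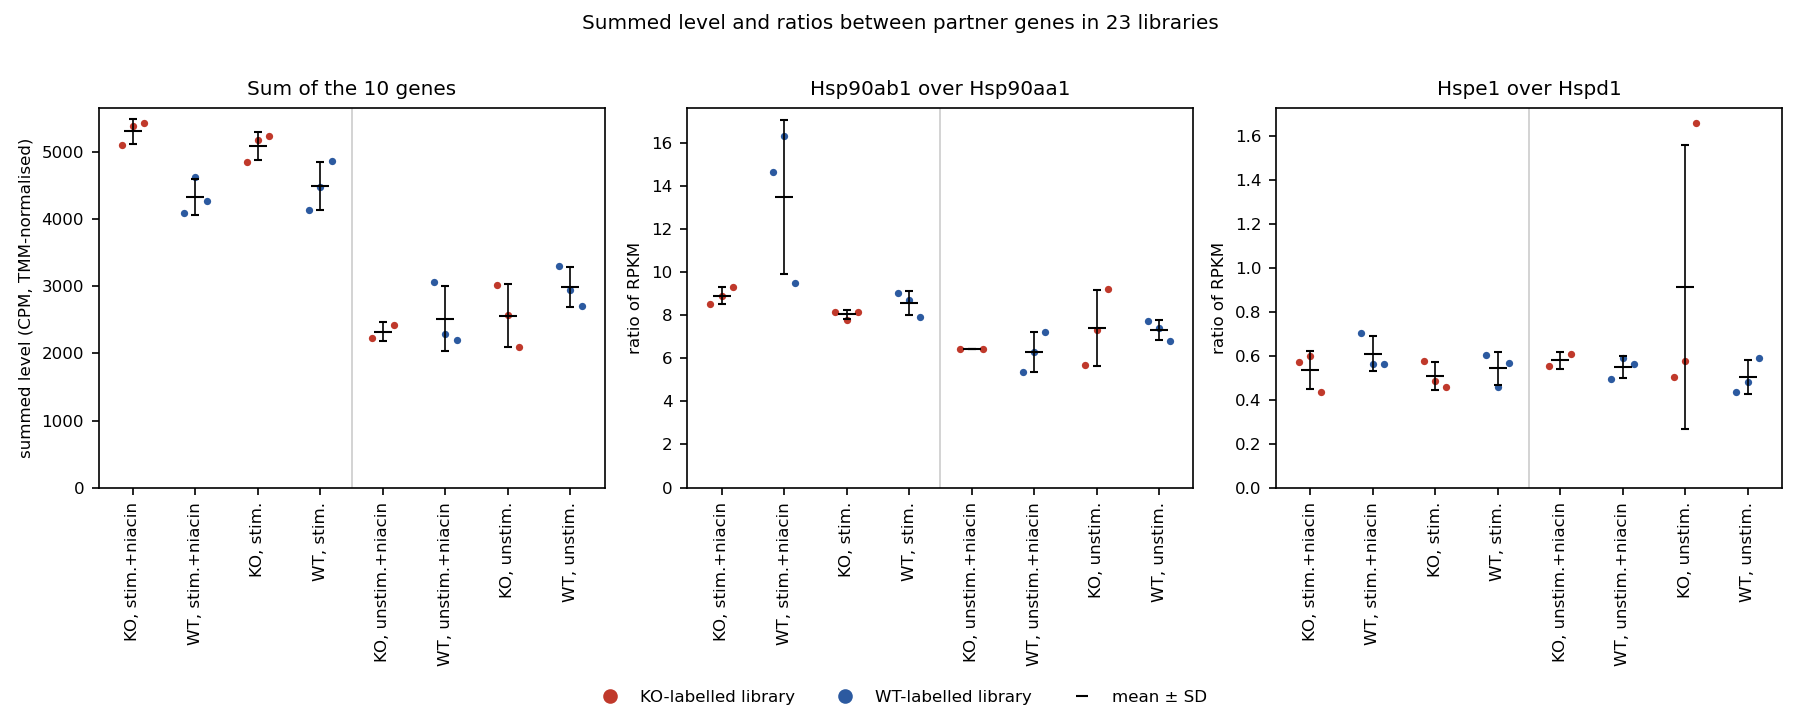
Summed TMM-normalised level of the 10 genes (left, CPM), ratio of Hsp90ab1 to Hsp90aa1 (middle) and ratio of Hspe1 to Hspd1 (right), both ratios of RPKM, in the 23 libraries; points are libraries, red for KO and blue for WT labels, with the mean and SD of each group in black. The sum was 4096 to 5436 CPM in stimulated and 2101 to 3303 CPM in unstimulated libraries; 2 stimulated WT libraries with niacin stand out in the middle (14.7 and 16.3), and 1 unstimulated KO library on the right (1.66).

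The sum of the 10 genes was set by 2 of them. Hsp90ab1 and Hspa8 together made up 63.8% to 83.7% of it. The sum was 5314 ± 182 CPM in KO and 4337 ± 273 CPM in WT cells stimulated with niacin (SD, n = 3 each), and 5096 ± 207 CPM in KO and 4497 ± 363 CPM in WT cells stimulated without it. Unstimulated cells had 2324 ± 139 CPM in KO (n = 2) and 2519 ± 481 CPM in WT cells with niacin, and 2566 ± 464 CPM in KO and 2989 ± 296 CPM in WT cells without it.

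Transcripts with a profile like that of Hsph1 or Hspe1 were ranked by Pearson's r of log2 CPM across the 23 libraries, which include stimulated and unstimulated libraries standing far apart, so that r is a description of this set only. The profiles most like Hsph1 were those of Abcf2 (r = 0.941), Ttpal (0.933), Dgcr8 (0.931), Mat2a (0.921) and Lsg1 (0.919). Those most like Hspe1 were Atp5j (0.959), Nucks1 (0.945), Mrps23 (0.944), Ifrd1 (0.935) and Nudcd2 (0.932). Hspd1, which shares the promoter region with Hspe1, had r = 0.761 with it over the 23 libraries. Between these genes r was 0.93 over the 8 group means and 0.059 within groups. Library 3 of the unstimulated KO cells, with Hspe1 at 1.66 of the level of Hspd1 per length, entered these values, and its part was not tested. The 5 genes were picked for the highest r, so any gene outside them is lower by that choice, and the ranking is no result about Hspd1.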

How the data were processed

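Values were the read counts per gene that the authors deposited in 1 table of 23 libraries. Per the labels' protocols, cDNA was made with SMART-seq V4 and sequenced in paired ends on an Illumina HiSeq. The submitters' processing notes name Trimmomatic 0.38, STAR 2.7.0e and featureCounts 1.6.3, with GRCm38.p5 and mm10. No source used here gives the strand setting or the treatment of reads with several matches. This bears on Hspa1b, on copies of the other genes, and on exons that overlap on opposite strands: Hspd1 shares 112 exon bases with Hspe1, and Dnaja1 shares 608 with Smu1. Symbols were matched for 53274 of 53379 IDs, and 51335 IDs had the coordinates of GENCODE vM21. No count column was left unused. Depth was 13205565 to 30090018 counts per library. Precision also depends on the spread among the 2 or 3 libraries of a group, with a common coefficient of variation of 27.35% over the tested genes.

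Computed here were TMM factors, CPM and RPKM (lengths from the table), and edgeR 4.0.16 quasi-likelihood tests with 1 mean per group over all 23 libraries, filterByExpr (minimum count 10), 15 residual degrees of freedom and Benjamini-Hochberg adjustment over 16882 genes at 0.05. Standard errors are the log2 fold change over the root of the F statistic. Counts of genes with an unadjusted p below 0.05 are given without the share of all tested genes at that threshold, so they show no enrichment. Alternatives were DESeq2 1.42.0, RLE factors, no filter, a replicate block, limma 3.58.1 voom with quality weights, only the groups compared, leaving out libraries, and adding annotated copies (blastn 2.17.0, at least 90% identity over 50% of the copy). Lists were recounted without 3 sets of libraries chosen after seeing the data. The genes and lists were chosen with earlier results of these data known. Named are the 10 genes, Hcar2, up to 4 called genes per list and direction with the largest log2 fold change in the stimulation comparisons without niacin, and the 5 profiles most like Hsph1 and Hspe1. R 4.3.3 was used.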

Additional observations from a re-analysis of the deposited data

Results flagged for a closer look

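For 2 genes, the KO and WT libraries were separate in opposite directions with and without stimulation. Without niacin, every stimulated KO library had more Hsph1 than any stimulated WT library, and every unstimulated KO library had less than any unstimulated WT library. Of the 16882 tested genes, 0.806% were separate in opposite directions in this way. The difference between these label effects was 1.09 ± 0.30 on the log2 scale, and its test was not passed (edgeR adjusted p = 0.419, 15 residual degrees of freedom). Without library 3 of the unstimulated KO cells, the lowest in Hsph1 of its group, it was 0.89 ± 0.28 (adjusted p = 0.613).

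In niacin, Dnaja1 was higher in every stimulated KO library than in any stimulated WT library. In unstimulated cells it had 118.6 and 111.7 CPM in KO libraries, against 122.6, 121.1 and 123.9 CPM in WT libraries, all lower. In niacin, where unstimulated KO cells had 2 libraries, 2.65% of the tested genes were separate in opposite directions. The difference between these effects was 0.87 ± 0.33 (adjusted p = 0.388), and 0.41 ± 0.38 (adjusted p = 0.942) without libraries 1 and 2 of the stimulated WT cells.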

How the results depend on the processing

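No gene called among the 10 reversed its direction, and of 232 values of called genes under the 8 settings other than leaving out single libraries, 224 kept their call and 8 lost it. The count of called genes stayed within 1.5 times its main value in 109 of 128 cases. The others follow as counts of the 10 genes. The share of all tested genes called under each setting is given above for some of them and otherwise not given. A larger count is therefore not by itself a result about the 10 genes. For the genotype label in stimulated cells, voom with quality weights called 1, in place of 0. In stimulated cells with niacin, in place of 1, DESeq2, no filter and voom each called 5, only the groups compared called 4, and leaving out libraries 1 and 2 of stimulated WT cells with niacin called 0. For the mean of both, in place of 2, DESeq2 and no filter called 5, voom and only the groups compared 7, the replicate block 1, and the fit without those 2 libraries 0. For stimulation in niacin in WT cells, voom called 8, in place of 5. Voom called 1 for niacin in unstimulated WT cells, 3 for niacin in stimulated WT cells, 5 for the stimulation effect by label in niacin and 1 for the niacin effect by label, each in place of 0. No filter called 1 for the stimulation effect by label without niacin and 2 in niacin. The causes were not tested. Leaving out single libraries gave 0 to 5 calls for the label in stimulated cells with niacin, 1 to 6 for the mean of both, 5 to 8 for stimulation in WT and 6 to 8 in KO cells, 5 to 6 in WT and 7 to 7 in KO cells in niacin, 0 to 1 for niacin in stimulated WT cells, and 0 to 0 in the other 9 comparisons. The main test did not pair libraries by replicate number. Correlations of same-numbered libraries' deviations from their group means ran from -0.18 to 0.289, and no comparison had every pair over 0.1. With 2 or 3 libraries per group, such correlations cannot show whether same-numbered libraries came from the same mouse. The replicate block ended 1 call, that of Hspd1 over both stimulated conditions (adjusted p = 0.0529). Over all genes, the label comparison in stimulated cells with niacin called 243 genes by edgeR, 1122 by DESeq2, 1767 without library 3 of the unstimulated KO cells and 7 without libraries 1 and 2 of the stimulated WT cells with niacin. Depth limits Hspa1b, at 10 to 43 reads per library.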

Other observations

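Hspa1a, the near copy of Hspa1b, had at most 0.931 CPM in any library, and its mean was 0.323 ± 0.462 CPM in unstimulated KO cells and 0.160 ± 0.170 CPM in unstimulated WT cells (SD, n = 3 each). Library 3 of the unstimulated KO cells held 0.856 CPM, against 0.0359 and 0.0779 CPM in the other libraries of its group. The same library had the highest Hspa1b level of all 23, at 1.80 CPM.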
